A study of Mus musculus with 9 samples.

Results

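The genes described here are *Lhb*, *Fshb*, *Cga*, *Gnrhr*, *Nr5a1* and *Foxl2*, which encode the hormone subunits, the releasing hormone receptor and a pair of transcription factors of the gonadotrope. These 6 genes were taken by name from the 55450 genes counted in the series. RNA was sequenced from Rathke’s pouch, the epithelial pocket that gives rise to the anterior and intermediate lobes of the pituitary, in 7 embryos at e13.5, and from the pituitary, without its posterior lobe, of 2 adult mice at postnatal week 8. The embryos were Sox2Egfp/+, with an Egfp allele at the *Sox2* locus, no genotype of the adults is given in the sources used here, and both groups were of the 129Sv/c57BL6J strain. Both sexes were used at each stage, but sex is not given for single libraries, so sex and library cannot be told apart. Read pairs counted on genes numbered 16738863 to 28537311 per embryo library (median 24687556), and 36421545 and 31191117 in adults 1 and 2. Embryos 1 and 4 stood apart, with 59.7% and 62.8% of their read pairs counted on genes, while the remaining embryos had 73.9% to 80.0%.

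Gonadotropes release luteinising hormone (LH) and follicle-stimulating hormone (FSH). Each hormone pairs the common alpha subunit, encoded by *Cga*, with a beta subunit of its own, encoded by *Lhb* or *Fshb*, and in thyrotropes the same alpha subunit pairs with *Tshb* to make thyroid-stimulating hormone. Gonadotropin-releasing hormone (GnRH) from the hypothalamus acts on the receptor *Gnrhr*, while the nuclear receptor NR5A1 (also called SF1) and the forkhead factor FOXL2 act at promoters of these genes. In the mouse, *Cga* is active early in the pouch, well before the gonadotropin beta subunits.

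The 6 genes fell into different patterns. *Lhb* and *Gnrhr* were close to the counting floor in the embryo and abundant in the adult, *Fshb* was low but above that floor in 6 of the 7 embryos, *Nr5a1* was counted in every embryo, and *Cga* was already among the most abundant transcripts in the pouch. *Foxl2* differed least between stages. Levels are given as CPM, counts scaled to library size by edgeR’s TMM method, and a gene was called at an adjusted p below 0.05 with a fold change above 4. By this rule 5 of the 6 genes were called, each higher in the adult, whereas 25.8% of the 19371 genes tested were called, 14.6% higher in the adult and 11.3% higher in the embryo. In all 6 genes the 7 embryos were below both adults, as they were in 32.9% of the genes tested. In bulk tissue, fewer cells of a type and less RNA per cell cannot be told apart.

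**Figure D1:**
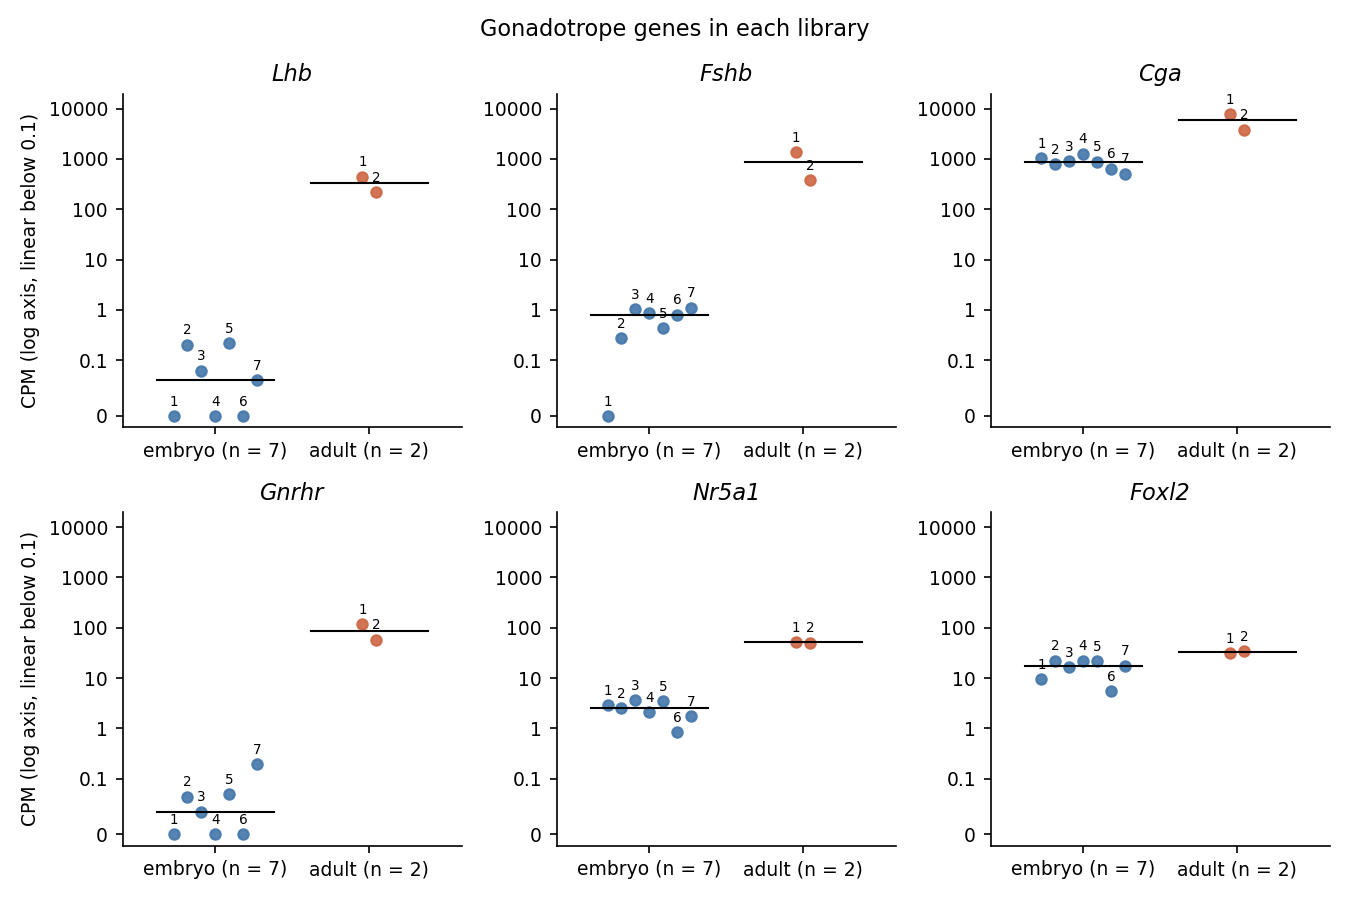
CPM of the 6 genes in each library, on a log axis that is linear below 0.1, with embryos in blue, adults in orange, the library number above each point and the group median as a line. The groups do not overlap in any gene, and the distance between them runs from 1.98-fold for Foxl2 to 3279-fold for Lhb in the fitted model.

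*Lhb* (ENSMUSG00000100916.3, chromosome 7, 45420820 to 45421897 in GRCm38, plus strand) encodes the beta subunit of LH. The embryos had 0 to 0.217 CPM with a median of 0.0642, and the adults had 446 CPM (adult 1) and 220 CPM (adult 2). Embryos 1, 4 and 6 had no *Lhb* count, which allows up to 0.220, 0.212 and 0.149 CPM at a floor of 3 counts, and no embryo came near an adult. In total 16 read pairs were counted over the 7 embryos (exact Poisson 95% interval 9.15 to 26.0), against 26185 in the 2 adults. Averages were 0.0808 ± 0.0943 (SD, n = 7) for embryos and 333 ± 160 (SD, n = 2) for adults in CPM, which gave a log2 fold change, embryo over adult, of −11.68 (standard error 0.51, edgeR adjusted p = 3.3e-09). From the pooled counts, the adult level was 3430 times that of the embryo, with an exact 95% interval of 2112 to 6002 that covers counting error only.

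*Fshb* (ENSMUSG00000027120.6, chromosome 2, 107056140 to 107059656, minus strand) encodes the beta subunit of FSH. Its level in the embryos ran from 0 to 1.09 CPM with a median of 0.792, and the adults reached 1362 and 377 CPM. Only embryo 1 had no count, and the other 6 held 8 to 34 read pairs each, so that *Fshb* was counted more often than *Lhb* in the pouch, with 107 read pairs in all. The adults differed widely from each other but both lay far above every embryo. Averages in CPM were 0.636 ± 0.408 (SD, n = 7) for embryos and 870 ± 696 (SD, n = 2) for adults, and the log2 fold change was −10.37 (standard error 0.59, edgeR adjusted p = 4.6e-08). Without adult 1 the log2 fold change was −9.19.

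*Cga* (ENSMUSG00000028298.10, chromosome 4, 34893779 to 34907370, plus strand), the alpha subunit, was of another order. The embryos had 509 to 1282 CPM with a median of 880, and the adults reached 7837 and 3845 CPM. Each embryo held 13029 to 24277 *Cga* read pairs, and the highest embryo was still below the lower adult. The mean rose from 865 ± 253 CPM (SD, n = 7) to 5841 ± 2823 CPM (SD, n = 2), and the log2 fold change was −2.76 (standard error 0.34, edgeR adjusted p = 2.1e-05) or 6.75-fold. When the change had to exceed 4-fold by the test, *Cga* alone of the 5 called genes did not pass. With offsets for length and GC content fitted in each library, the log2 fold change of *Cga* was −4.18 and that of *Lhb* was −13.34.

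RefSeq (build GRCm38.p6) gave the 250 bases before the start for *Lhb*, *Fshb*, *Cga*, *Gnrhr* and *Foxl2*, 5 of the 6 genes. Each was searched on both strands for an NR5A1 element (TGNCCTTG), an EGR1 element (CNCCCCCA), a cAMP response element (CRE, TGANGTCA), a PITX1 element (TAATCC), an AP-1 element (TGANTCA) and a TATA box (TATAAA). Of all 32851 promoters of this length, 5.53% held the NR5A1 element, 12.8% the EGR1 element, 7.49% the CRE, 6.25% the PITX1 element, 6.75% the AP-1 element and 12.4% the TATA box. *Lhb* held 2 NR5A1 and 2 EGR1 matches in alternation, with a TATA box 31 bases before the RefSeq start. The NR5A1 matches are at chr7:45420817-45420824 and chr7:45420887-45420894, and the EGR1 matches at chr7:45420834-45420841 and chr7:45420896-45420903, all on the plus strand. The Ensembl model starts *Lhb* at 45420820 and RefSeq at 45420946, so these matches lie inside the Ensembl gene or across its start. Each match is shown in capitals within 30 bases.

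*Lhb* NR5A1, 129 bases before the start: cctggcttcccTGACCTTGtctgtgtctcg

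*Lhb* EGR1, 112 bases before the start: tgtctgtgtctCGCCCCCAaagagattagt

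*Lhb* NR5A1, 59 bases before the start: ccactacttagTGGCCTTGccacccccaca

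*Lhb* EGR1, 50 bases before the start: agtggccttgcCACCCCCAcaacccgcagg

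*Fshb* held neither element but an AP-1 match at chr2:107059654-107059660 on the minus strand, 9 bases before the start, and a TATA box 30 bases before it.

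*Fshb* AP-1, the match in capitals: gaggtgtaactTGACTCAgt

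The window of *Cga* (chr4:34893529-34893778, plus strand) held 1 NR5A1 match 215 bases before the start that overlaps a CRE match 209 bases before it, a further CRE match 139 bases and a TATA box 30 bases before the start. All are in capitals in the whole window.

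*Cga*, 250 bases before the start: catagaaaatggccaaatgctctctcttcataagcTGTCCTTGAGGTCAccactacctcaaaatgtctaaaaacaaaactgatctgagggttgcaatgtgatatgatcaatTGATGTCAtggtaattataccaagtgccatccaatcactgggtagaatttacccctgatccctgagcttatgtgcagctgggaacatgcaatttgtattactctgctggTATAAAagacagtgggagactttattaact

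The AP-1 match lies across the Ensembl start of *Fshb*, and the RefSeq window of *Foxl2* lies wholly inside the Ensembl gene. In the windows of *Gnrhr* and *Foxl2* the only match was a TATA box of *Gnrhr* 121 bases before its start. A match describes letters in the reference and was not tested as a binding site here.

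Levels of different genes can be compared only per length, as TPM (counts per kilobase of merged exons, scaled to the same total in every library). *Cga* had 1298 to 2485 TPM in the embryos, with a mean of 1816 ± 436 (SD, n = 7) that ranked 73 of the 19371 genes tested. In the adult it averaged 17348 ± 8492 TPM (SD, n = 2) and ranked 5, with *Fshb* at rank 26 (1542 ± 1242 TPM) and *Lhb* at rank 33 (1390 ± 677 TPM). All 3 subunits were thus among the most abundant adult transcripts, whereas in the embryo the mean TPM of *Fshb* and *Lhb* was 0.907 and 0.311. The alpha subunit in the pouch was therefore set against *Tshb*, its partner in thyrotropes. In CPM *Tshb* ran from 76.4 to 432 in the embryos with a median of 220, and was 229 in adult 1 and 440 in adult 2. Unlike the gonadotropin subunits, *Tshb* overlapped between stages and was not called (log2 fold change −0.64, standard error 0.47, edgeR adjusted p = 0.267).

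Of the summed TPM of *Tshb*, *Lhb* and *Fshb*, *Tshb* made up 95.7% to 100% in the embryos (median 98.9%). In the adults its part was 3.22% (adult 1) and 14.7% (adult 2), with *Lhb* at 42.2% and 49.3% and *Fshb* at 54.6% and 35.9%. The beta subunits were almost all *Tshb* in the pouch and mostly gonadotropin in the adult, with no overlap. *Cga* exceeded the sum of the 3 beta subunits in every library, by 11.4 to 54.4 times in the embryos (median 20) and by 5.27 and 6.14 times in adults 1 and 2. Per length, *Cga* was 12.5 times *Lhb* in adult 1 and 12.4 times *Lhb* in adult 2. Against *Fshb* it was 9.65 times in adult 1 and 17.1 times in adult 2, so that the adults had nearly the same ratio for the LH subunits and different ratios for the FSH subunits. These ratios depend on the model of *Cga*: with the longest transcript in place of merged exons the ratio to *Lhb* was 16.9 and 16.8. With the unstranded count the ratio was 8.59 and 8.54 to *Lhb*, 4.58 and 8.13 to *Fshb*, and 2.88 and 3.44 to the sum of the 3 beta subunits. In the embryos the median ratio to that sum was 10.3 with the unstranded count and 26.0 with the longest transcript. In adult 2 that count put *Lhb* slightly below *Fshb* per length, at 40.3% and 42.3% of the sum.

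**Figure D2:**
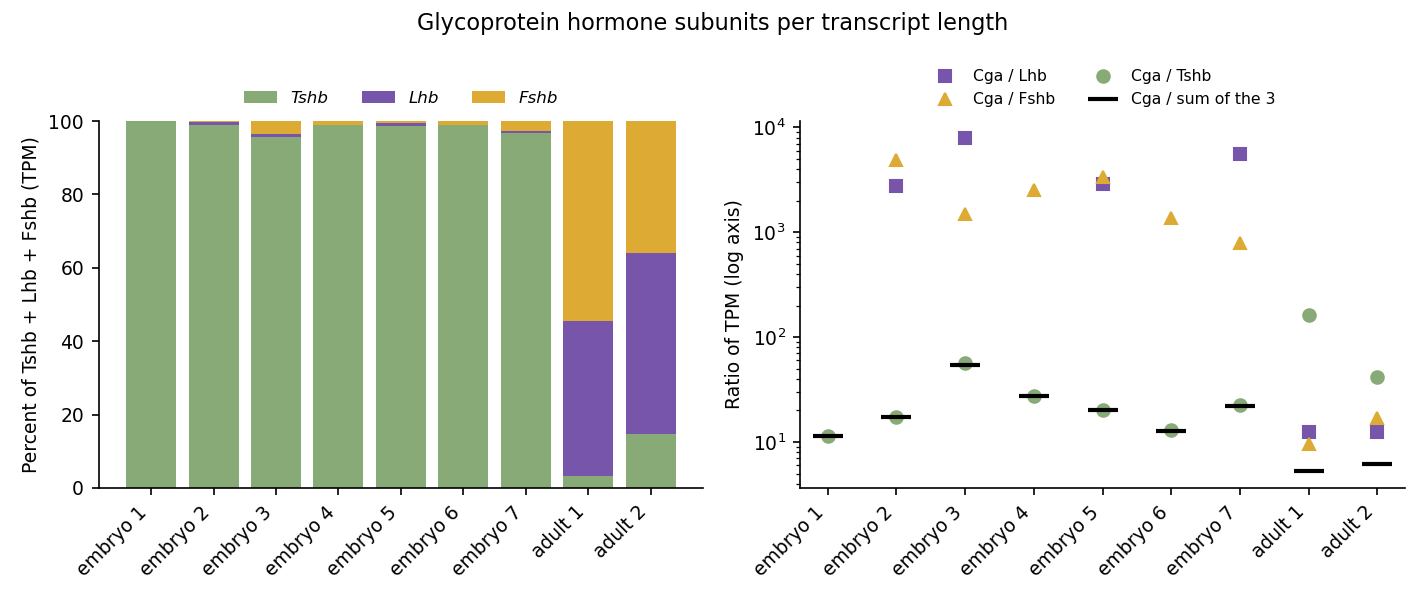
Left, the percent of the summed TPM of Tshb, Lhb and Fshb taken by each in every library; right, the ratio of Cga TPM to each beta subunit and to their sum, on a log axis, with no point where a beta subunit had no count. Tshb makes up at least 95.7% in each embryo and at most 14.7% in an adult, and the ratio of Cga to Lhb is nearly equal in both adults.

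The receptor gene *Gnrhr* (ENSMUSG00000029255.8, chromosome 5, 86180754 to 86197901, minus strand) was counted as rarely as *Lhb* in the pouch. The embryos ran from 0 to 0.193 CPM with a median of 0.0406, and the adults reached 117 and 58.0 CPM. Embryos 1, 4 and 6, which had no *Lhb* count, had no *Gnrhr* count either, and embryo 7 held 6 of the 11 read pairs of the group (exact Poisson 95% interval for the 11, 5.49 to 19.7). Embryos 1, 4 and 6 also had the fewest read pairs counted on genes among the embryos, 16738863, 18825731 and 22393725. The part of depth in these shared zeros was not tested. Mean CPM was 0.0533 ± 0.0691 (SD, n = 7) in the embryo and 87.4 ± 41.6 (SD, n = 2) in the adult, and the log2 fold change was −10.27 (standard error 0.52, edgeR adjusted p = 1.3e-08), or −11.00 without embryo 7. The adult level from pooled counts was 1311 times that of the embryo (exact 95% interval 732 to 2627, counting error only). The ligand gene *Gnrh1*, made by hypothalamic neurons, had at most 0.439 CPM in any library and was not tested.

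Of the transcription factors, *Nr5a1* (ENSMUSG00000026751.14, chromosome 2, 38692656 to 38714542, minus strand) was present in all 7 embryos, from 0.842 to 3.61 CPM with a median of 2.50. The adults reached 51.6 and 50.8 CPM. The adults were almost equal, and the embryos, lowest in embryo 6 and highest in embryo 3, were all far below them. The mean rose from 2.45 ± 0.98 CPM (SD, n = 7) to 51.2 ± 0.56 CPM (SD, n = 2), which was a log2 fold change of −4.38 (standard error 0.37, edgeR adjusted p = 1.1e-06) or 20.8-fold.

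*Nr5a1* is also active in the ventromedial hypothalamus, the adrenal and the gonad, so markers of the hypothalamus and of steroidogenic tissue are given beside it. The hypothalamic list is not specific to the ventromedial part, and the authors used *Nkx2-1* to mark the posterior pituitary. All 4 tested hypothalamic genes of a list of 5 (*Rax*, *Nkx2-1*, *Fezf1*, *Sim1* and *Foxb1*) were called higher in the embryo. Their summed level was 55.7, 147, 71.4, 49.2, 82.3, 85.6 and 72.6 CPM in embryos 1 to 7, and 2.62 and 3.91 CPM in the adults. *Rax* had the highest CPM of the list in every library. Per length, *Rax* and *Nkx2-1* averaged 19.4 and 18.8 TPM in the embryos, and 0.867 and 1.39 TPM in the adults. *Foxb1* was at 0 in both adults and in embryos 1, 3, 6 and 7, *Sim1* at 0 in adult 1 and *Fezf1* at 0 in adult 2. Without adult 1, *Sim1* was not called (log2 fold change 3.48 against 4.48). It was also not called with the replicate block, fitted to embryos 1 and 2 and adults 1 and 2 (5.20), nor in the same libraries without the block (5.19). Of 5 steroidogenic genes (*Star*, *Cyp11a1*, *Cyp17a1*, *Cyp19a1* and *Amh*) 2 were tested and *Cyp17a1* was called higher in the adult. The 5 summed to 0.440, 0.608, 0.487, 0.282, 1.34, 0.545 and 0.289 CPM in embryos 1 to 7 and to 2.76 and 3.26 CPM in the adults. *Star* had the highest mean CPM in the embryos and *Cyp17a1* the highest CPM in both adults. Per length, *Amh* averaged 0.183 TPM and *Star* 0.160 TPM in the embryos, and *Cyp17a1* was highest in the adults at 1.65 TPM. *Cyp19a1* was at 0 in every embryo and in adult 2, and in embryo 4 only *Amh* was counted. The part of hypothalamic tissue in the embryonic *Nr5a1* counts was not tested.

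*Foxl2* (ENSMUSG00000050397.4, chromosome 9, 98955288 to 98958543, plus strand) was the member with the smallest change. The embryos had 5.5 to 22.2 CPM with a median of 17.4, and the adults reached 31.2 and 33.8 CPM. Embryos 1 and 6 were low, at 9.45 and 5.5 CPM, and the other 5 lay between 16.4 and 22.2 CPM, below both adults. Averages in CPM were 16.4 ± 6.6 (SD, n = 7) for embryos and 32.5 ± 1.84 (SD, n = 2) for adults. The log2 fold change of −0.99 (standard error 0.41) had an edgeR adjusted p of 0.0552 and was not called. Under the alternatives its lowest value was −1.22 and its highest −0.79, always under 4-fold, and the adjusted p lay between 0.0160 and 0.211. Per length, *Foxl2* exceeded *Nr5a1* in every embryo, by 4.31 to 13.7 times (median 8.50), and was below it in both adults, at 0.788 and 0.867 times. The order of these factors per length was therefore opposite in the pouch and in the adult.

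The 2 adult libraries were then set against each other, as single libraries with no replicates and so no test. *Lhb*, *Cga* and *Gnrhr* were higher in adult 1 by almost the same factor, 2.03 for *Lhb* (exact 95% interval 1.98 to 2.08, counting error only), 2.04 for *Cga* (2.03 to 2.05) and 2.01 for *Gnrhr* (1.91 to 2.12). *Fshb* was 3.61 times higher in adult 1 (3.54 to 3.68). *Nr5a1* and *Foxl2* had ratios of 1.02 (0.953 to 1.08) and 0.923 (0.853 to 1.0), so that these factors were level while the hormone and receptor genes were not. Among other genes enriched in gonadotropes or of the inhibin family, *Tgfbr3l* had a ratio of 1.73 with an interval (1.36 to 2.21) that covers those of *Lhb*, *Cga* and *Gnrhr*. The ratios of *Qpct* (1.33, 1.25 to 1.42), *Inha* (0.975, 0.878 to 1.08), *Inhbb* (0.815, 0.750 to 0.885) and *Scg2* (0.692, 0.687 to 0.698) were lower. Thus 4 of the 6 genes were at least 2-fold higher in adult 1, as were 1.53% of the 13675 genes with at least 100 counts in an adult, and 2.02% were at least 2-fold higher in adult 2. The median ratio of those genes was 1.03. With DESeq2’s size factors *Gnrhr* had a ratio of 1.99 and fell just short of 2-fold, as it did when scaled by library size alone.

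Genes of other hormone cells also differed between the adults, in both directions. *Prl*, prolactin, was 2.11 times higher in adult 1 and *Gh*, growth hormone, was 0.837 times its level in adult 2. *Pomc*, the precursor of adrenocorticotropin, was 2.29 times higher in adult 2, *Tshb* was 1.92 times higher and *Gata2*, a factor of gonadotropes and thyrotropes, was 3.26 times higher there. The 5 genes of the PIT1 lineage (*Pou1f1*, *Gh*, *Prl*, *Tshb* and *Ghrhr*) summed to 116053 CPM in adult 1 and 93882 in adult 2, and each was counted in both adults. *Prl* had the highest CPM in adult 1 and *Gh* in adult 2. Per length, *Gh* averaged 192398 TPM and *Prl* 92088 TPM over the adults. The 4 corticotrope and melanotrope genes (*Pomc*, *Tbx19*, *Pax7* and *Pcsk2*, with *Pomc* the most abundant) summed to 28159 and 63929 CPM, and each was counted in both adults. The adults were 1 male and 1 female, so in these differences sex cannot be told apart from library. The part of cell composition was not tested.

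**Figure D3:**
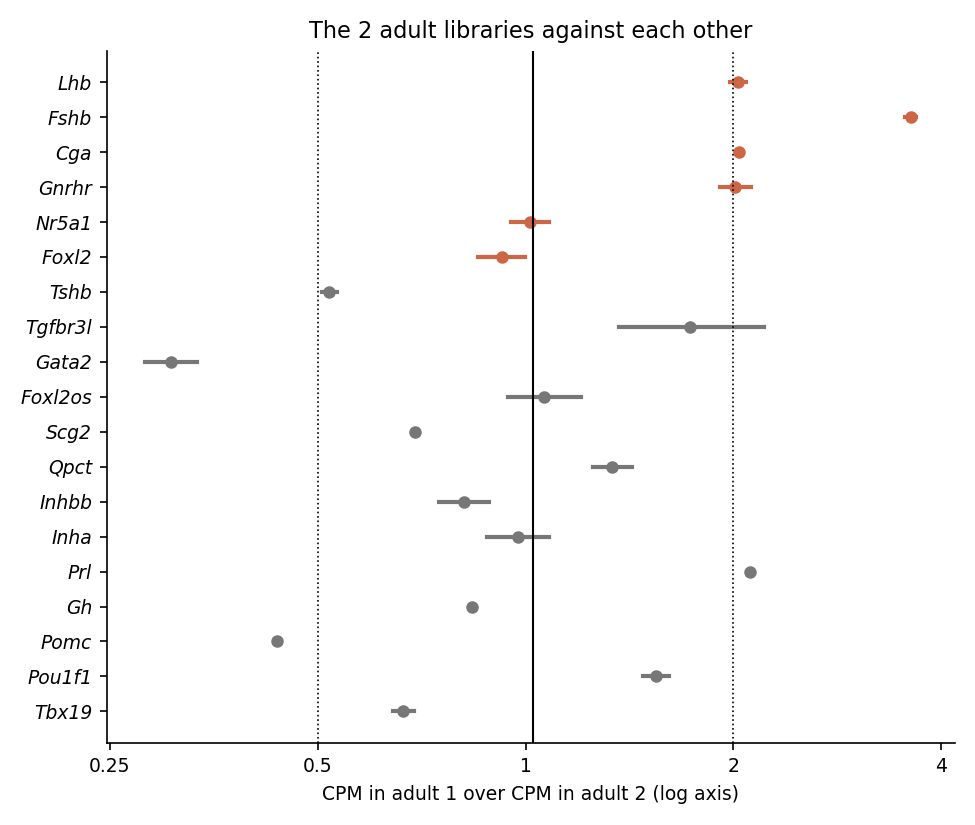
CPM in adult 1 over CPM in adult 2 on a log axis, with bars for exact 95% intervals of counting error; the 6 genes are in orange and genes of the same or other pituitary cells in grey, with a solid line at the median ratio of 1.03 and dotted lines at 2-fold. Lhb, Cga and Gnrhr lie together near 2, Fshb beyond them, and Nr5a1 and Foxl2 near 1.

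Among the single embryos, *Cga* varied by 2.52 times from lowest to highest, *Foxl2* by 4.04 times and *Nr5a1* by 4.29 times. Embryo 6 was the lowest in both *Nr5a1* and *Foxl2*. *Foxl2os*, a transcript on the opposite strand that shares 12 exonic bases with *Foxl2*, was low in embryos 1 and 6 as well, at 1.39 and 1.58 CPM, and had 4.59 to 6.13 CPM in the other embryos and 14.5 and 13.6 CPM in the adults. Markers of red blood cells set embryos 1 and 4 apart. The 4 globin genes (*Hba-a1*, *Hbb-bt*, *Hbb-bs* and *Hbb-y*), all called higher in the embryo, summed to 165953 CPM in embryo 1 and 207262 in embryo 4. The other embryos had 5963 to 18444 CPM and the adults 712 and 1796 CPM, with *Hbb-y* the most abundant in the embryos and *Hbb-bs* in the adults, and none of the 4 at 0 in any library. Of the 4, 1 was called without adult 1, 1 without adult 2, and 3 without embryo 1, 4 or 6. After correction for length and GC content 1 was called. Embryos 1 and 4 had the highest *Cga* in CPM, 1034 and 1282, but not in TPM, which is scaled to the total of each library and not by TMM, where their 1413 and 1576 were exceeded by embryos 2, 3, 5 and 7. The order of the embryos in *Cga* thus depends on the scaling. The part of blood RNA in the order of the embryos was not tested.

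**Figure D4:**
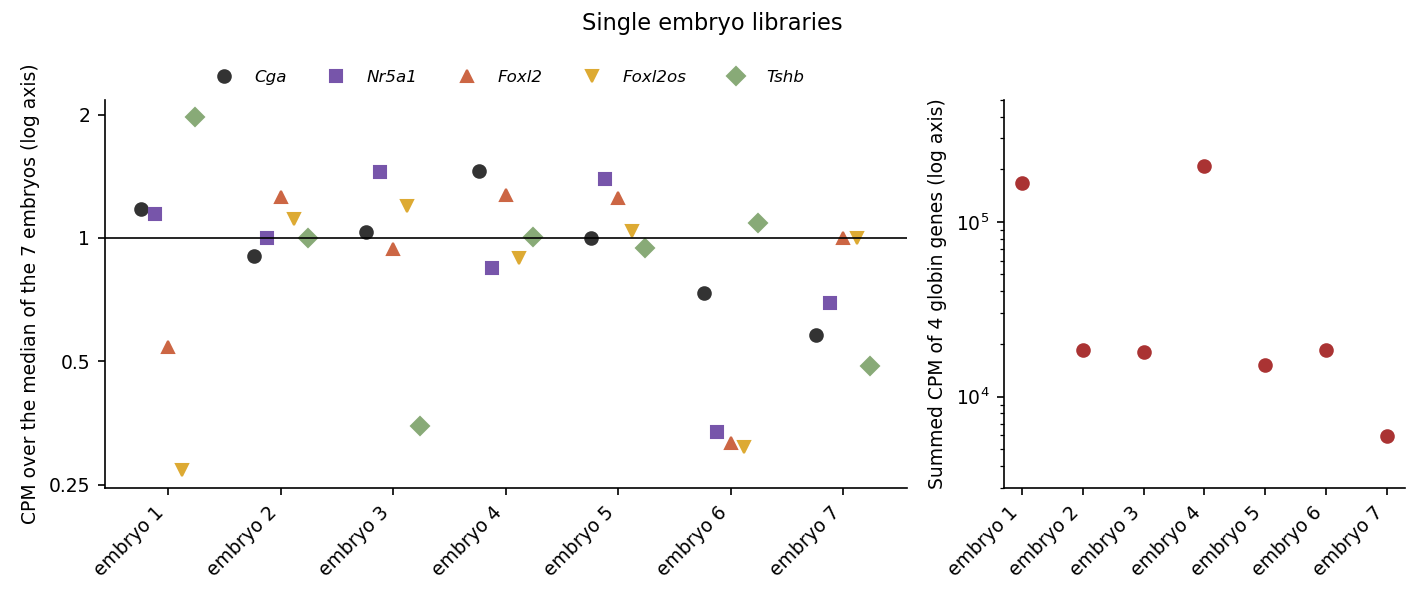
Left, CPM of Cga, Nr5a1, Foxl2, the antisense transcript Foxl2os and Tshb in each embryo over the median of the 7 embryos; right, the summed CPM of 4 globin genes; both on log axes. Foxl2 and Foxl2os are low in embryos 1 and 6, and the globin sum stands apart in embryos 1 and 4.

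Relations across the 7 embryos were computed for *Cga*, *Nr5a1* and *Foxl2* with each other, with *Tshb* and with the percent of read pairs on genes, 9 in all. None passed correction over the 9 (exact two-sided permutation tests, lowest adjusted p = 0.582). *Nr5a1* and *Foxl2* had r = 0.63 (exact permutation p = 0.129, adjusted p = 0.582) and rho = 0.11 (exact permutation p = 0.840), and without embryos 3 and 6, farthest from the median of *Nr5a1*, r was −0.12. For *Cga* and *Nr5a1*, r was 0.51 (exact permutation p = 0.247, adjusted p = 0.742) and rho 0.50 (exact permutation p = 0.267), with r = 0.85 without embryos 4 and 7. Without embryos 1 and 4, r was 0.84 for the former pair and 0.73 for the latter, over 5 embryos and with no test. *Foxl2* with *Tshb* had r = −0.35 (exact permutation p = 0.424, adjusted p = 0.764), and 0.995 without embryos 1 and 6. *Nr5a1* with *Tshb* had r = −0.16 (exact permutation p = 0.740, adjusted p = 0.832), and 0.62 without embryos 3 and 6. These values over 5 embryos had no test either. The percent of read pairs on genes fell into separate clusters, so no r is given for its 3 relations, which were computed with the others and had adjusted p from 0.582 to 0.988. The low cluster, embryos 1 and 4, was also the highest in *Cga* CPM.

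The wider pathway was described by lists of related genes, beside all tested genes with a median log2 fold change of −0.04, of which 14.6% were called higher in the adult and 11.3% higher in the embryo. Among 9 glycoprotein hormone and receptor genes, which include *Lhb*, *Fshb* and *Cga*, 6 were tested. The 3 called higher in the adult were *Lhb*, *Fshb* and *Cga* themselves, and 1, the alpha-like subunit *Gpha2*, was called higher in the embryo. The list median of −1.70 includes these members. The other tested genes, *Tshb*, *Tshr* and *Gpha2*, were at −0.64, 1.99 and 2.92 on the log2 scale. *Gpha2* averaged 3.93 ± 2.69 CPM in embryos (SD, n = 7), with 0.436 and 0.590 CPM in the adults. Its log2 fold change was 2.92 (standard error 0.76, edgeR adjusted p = 0.0055), 1.11 after correction for length and GC content, and it was not called without adult 1. The thyrotropin receptor gene *Tshr*, at 1.99, lay just under the threshold and was called higher in the embryo without embryo 1, 3, 4 or 6 and after correction for length and GC content (2.33). The gonadotropin receptors, whose main sites are in the gonads, were barely counted, with *Lhcgr* at 0 in all embryos and at 17 and 2 counts in the adults, and *Fshr* at 0 in all libraries but embryo 5, which had 1 count. *Gphb5* was at 0 in all 9 libraries.

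Of the 14 lineage factors 9 were not called, 4 were called higher in the embryo and 1 higher in the adult, with a median of 1.0. *Hesx1*, an early repressor of the pouch, averaged 24.8 ± 9.4 CPM in embryos (SD, n = 7), with 0.339 and 0.562 CPM in the adults (log2 fold change 5.77, standard error 0.59). *Lhx4*, which acts in pouch growth, followed at 4.29 (standard error 0.73). The gene called higher in the adult was *Egr1*, an immediate-early factor induced by GnRH that acts on *Lhb*, at 24.1 ± 22 CPM in embryos (SD, n = 7) and 236 and 160 CPM in the adults (log2 fold change −3.04, standard error 0.67). With the replicate block, over 4 libraries, these values were 5.11 for *Hesx1*, 2.75 for *Lhx4* and −2.30 for *Egr1*, all still called. *Nr0b1* was also called higher in the adult (−2.65). The same 4 libraries without the block gave 5.15, 2.86, −2.30 and −2.50 in that order, all called. After correction for length and GC content *Nr0b1* was called as well (−2.28). High early factors in the pouch thus stood beside near-absent *Lhb* and *Fshb*, and *Egr1* moved in the same direction as *Lhb*.

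Of 28 tested GnRH signalling genes, from a list of 29, 10 were called higher in the adult and 0 higher in the embryo by edgeR (median −1.26). DESeq2 gave the same counts, and at an unadjusted p below 0.05 the counts were 16 and 5. The kinase gene *Camk2b* (4.17 ± 3.77 CPM in the embryo, 163 and 108 CPM in the adults, log2 fold change −5.00) and the calcium channel gene *Cacna1d* (5.94 ± 3.43 CPM in the embryo, 101 and 101 CPM in the adults, −4.09) changed most. After correction for length and GC content 5 genes of this list were called higher in the adult, and *Cacna1d*, at −2.83, changed less than *Dusp1* (−3.64), *Fos* (−3.51) and *Prkce* (−3.05). *Fos* varied widely in the embryos, from 1.67 to 82.7 CPM. Its uncorrected log2 fold change was −2.76 over all libraries and −2.20 without adult 1. *Camk2b* was at −4.30 with the replicate block and at −4.06 in the same libraries without it. Among the 15 activin and inhibin genes, 5 were called higher in the adult and 1 higher in the embryo (median −1.59). *Tgfbr3l*, an inhibin B co-receptor of gonadotropes, had 0.306 ± 0.233 CPM in the embryo and 5.12 and 2.95 CPM in the adults (−3.64, standard error 0.81). For the activin receptor gene *Acvr1c* the value was −3.21 (standard error 0.65), and *Fst*, which encodes the activin binder follistatin, was higher in the embryo by 2.80 on the log2 scale (standard error 0.88). *Fst* was not called without adult 1 (2.25), without adult 2 (3.60) or with the replicate block (3.59), and *Acvr1c* was not called after correction for length and GC content (−1.30). In the libraries of the block, fitted without it, *Fst* was called (3.57), while *Acvr1c* (−2.71) and *Tgfbr3l* (−3.96) were not.

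Receptors for steroid feedback were nearly all higher in the adult, with 5 of 6 tested genes called and 0 in the other direction by edgeR, by DESeq2 or at an unadjusted p below 0.05 (median −2.84). *Esr1*, the oestrogen receptor alpha, averaged 0.101 ± 0.0916 CPM in embryos (SD, n = 7), with 170 and 121 CPM in the adults (log2 fold change −10.19, standard error 0.44, edgeR adjusted p = 3.3e-09). After correction for length and GC content *Esr1* was at −9.11 and 3 of the 6 were called. A short list of gonadotrope-enriched genes, *Tgfbr3l*, *Scg2*, *Qpct* and *Foxp2*, had 3 of 4 called higher in the adult and 0 in the embryo by edgeR and by DESeq2 (4 and 0 at an unadjusted p below 0.05). *Qpct*, which encodes glutaminyl cyclase, an enzyme that forms the amino-terminal pyroglutamate of peptides such as GnRH, had 4.72 ± 1.79 CPM in the embryo and 57.1 and 42.8 CPM in the adults (−3.40, standard error 0.34). Over all these lists, 69 genes other than the 6 were tested, 23 were called higher in the adult and 6 higher in the embryo, with a median of −1.09, beside 14.6% and 11.3% of all tested genes and their median of −0.04.

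**Figure D5:**
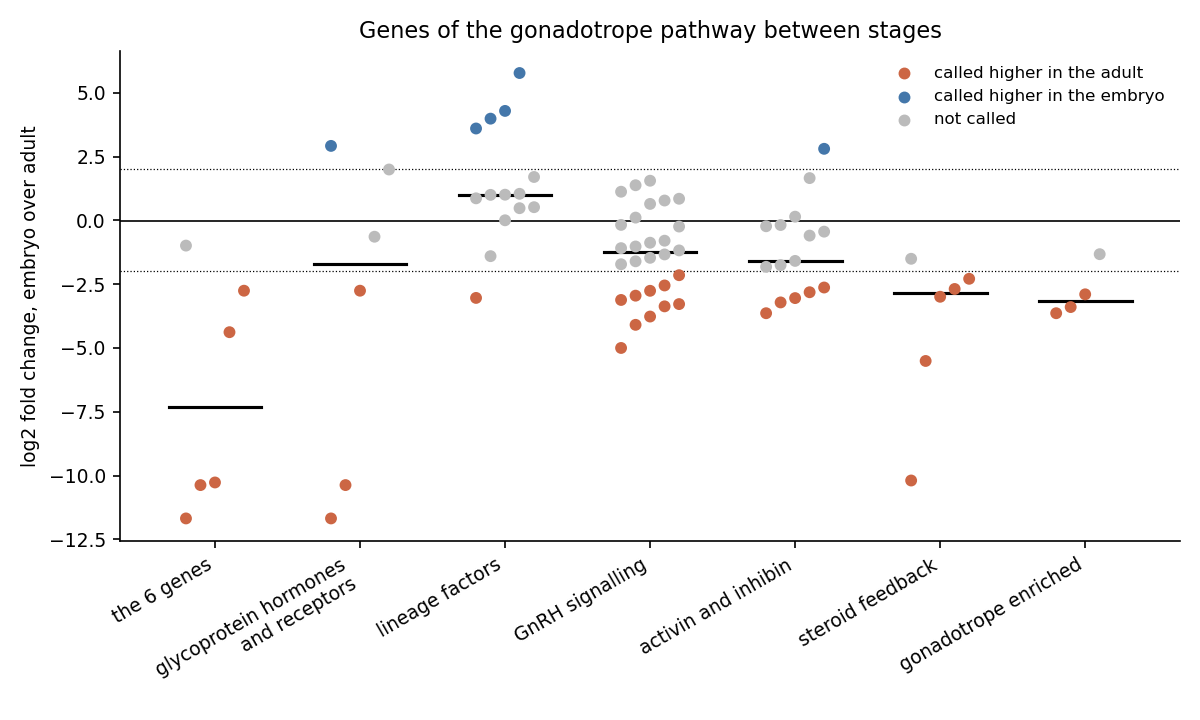
Log2 fold change, embryo over adult, of each tested gene in the pathway lists, orange where called higher in the adult, blue where called higher in the embryo and grey otherwise; bars are list medians, the solid line is the median of all tested genes and dotted lines mark 4-fold. GnRH signalling, steroid feedback and gonadotrope-enriched genes were called only towards the adult, while the lineage factors had 4 genes towards the embryo and 1 towards the adult.

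The tissues were checked against markers of the other cells they could hold. All 4 corticotrope and melanotrope genes and 4 of the 5 PIT1 lineage genes were called higher in the adult, and *Gh* and *Prl* averaged 0.465 and 0.344 CPM in the embryo. Of the 5 macrophage genes 0 were called by edgeR or by DESeq2, with 1 at an unadjusted p below 0.05. Of 5 endothelial genes 1, *Emcn*, was called higher in the embryo, of 5 mesenchymal genes 3 were higher in the embryo and 1 (*Prrx1*) in the adult. Of 5 muscle genes 3 were higher in the embryo and 1 (*Ttn*) in the adult, with *Myh3* and *Myod1* at 0 in both adults. *Myod1* was not called without adult 1 or without adult 2. *Myh3* and *Myog* were not called with the replicate block, nor in the same 4 libraries without it. For *Myog* the log2 fold change was 5.51 with the block and 5.56 without it, against 6.31 over all libraries. *Prrx1* was not called after correction for length and GC content. The oral epithelial genes had 1 of 3 tested (*Krt5*, log2 fold change 2.95) higher in the embryo, and *Krt6a* was at 0 in the adults. *Krt5* was not called without adult 1 (2.09), with the replicate block (2.98) or in the same libraries without the block (2.52).

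For each member, the genes with the most similar profile over the 9 libraries were found among 12744 genes. These were counted at least 100 times per library on average. Likeness was the root mean square difference of centred log2(CPM + 0.5). Nearest to *Lhb* were *Esr1* (0.520), *Fshb* (0.601) and *Cyp2f2* (0.636). Nearest to *Fshb* were *Lhb* (0.601), *Oacyl* (0.653) and *Esr1* (0.852). *Gnrhr* was closest to *5330417C22Rik* (0.279), *Esr1* (0.329) and *Pax7* (0.351). *Lhb*, *Fshb*, *Gnrhr*, *Esr1* and *Pax7* were all near 0 in the embryos, so likeness among them rests mainly on the difference between stages. For genes this low the added 0.5 narrows that difference, so a small distance does not mean an equal fold change. *5330417C22Rik* was not near 0 in the embryos, at a mean of 7.02 CPM. Its log2 fold change was −7.29, against −10.27 for *Gnrhr*. *Cga* was closest to *Stat5a* (0.225), *Hist1h1e* (0.269) and the pseudogene *Gm6278* (0.299), none of them a hormone gene. *Nr5a1* was closest to *Phyhip* (0.257), *Syn1* (0.319) and *Cdk5r2* (0.358), and *Foxl2* to *Casz1* (0.186), *Atp1b2* (0.296) and *Anxa11* (0.298).

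Counts on the transcribed strand matter at these loci, because *Lhb* shares 138 exonic bases with *Ruvbl2* and *Cga* shares 305 with *Platr9*, both on the opposite strand. In the unstranded count, which leaves out read pairs that fall on both genes, *Cga* kept 50.6% of its strand-specific count in the embryo and 47.5% in the adult. *Lhb* kept 100% of its 16 read pairs in the embryo and 69.2% in the adult. *Ruvbl2* was abundant in both stages, with 130 ± 36 CPM (SD, n = 7) in the embryo and 38.6 and 34.0 CPM in the adults. *Nr5a1os*, which lies across the start of *Nr5a1* on the opposite strand and shares no exonic base with it, had 56 and 61 counts in the adults and 1 count in all embryos together.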

How the data were processed

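The authors trimmed 75 bp read pairs from directional poly(A) libraries (Trimmomatic 0.39), aligned them with STAR 2.7.5b (mm10, GRCm38) and deposited raw counts of read pairs per gene for each library. The strand-specific count (column 4) was used. Entries that name no gene stayed out: unmapped pairs (0.854% to 10.3% per library), pairs aligned in several places (7.16% to 26.1%), on no gene (2.40% to 6.62%) and ambiguous (1.32% to 2.64%). All 55450 identifiers matched Ensembl 96 (GENCODE M21).

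Genes whose count averaged 5 or more were tested with edgeR 4.0.16 (quasi-likelihood, TMM, R 4.3.3), stage as the only term, with Benjamini–Hochberg adjustment over 19371 genes, after a test on simulated data. Relations and nearest profiles used log2(CPM + 0.5), in Python 3.11.15. Alternatives were DESeq2 1.42.0, other scalings, filters and thresholds, the unstranded count, a length and GC correction, the replicate block, and libraries left out. The same 4 libraries without the block, and all alternatives for the lists, the ratios of *Cga*, the percent of *Tshb* and the difference between adults, were added after the data were seen. The members and lists were chosen with earlier results of these data known. Named genes are the 6 members, for each list the called genes with the 2 largest log2 fold changes in each direction and any gene at 0 in a group, and for each member the 3 nearest profiles. Some genes that this rule takes are not named. Other named genes were chosen after their values were seen.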

Additional observations from a re-analysis of the deposited data

Results flagged for a closer look

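In *Gnrhr*, embryo 7 stood apart from the other 6 embryos at 0.193 CPM, with a gap to the next embryo of 0.624 of the whole range, above the limit of 0.568 for 7 values. This rests on 6 read pairs. The 6 genes and *Tshb* were checked in this way, 7 groups in all, and chance flags about 1 in 20 groups.

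Counts on the strand opposite to each gene were not used in the comparisons. The highest were 55 at *Lhb* (embryo 3), 23 at *Fshb* (adult 1), 113 at *Cga* (adult 1), 12 at *Nr5a1* (adult 2) and 41 at *Foxl2* (adult 1), each above the floor of 3 counts. At *Lhb* the embryos held 17 to 55 opposite-strand counts, 201 in total, against 16 on the strand of the gene, and the adults held 27 and 12. *Ruvbl2* lies on that opposite strand, shares 138 exonic bases with *Lhb* and had 192 CPM in embryo 3. The part of *Ruvbl2* in these counts was not tested. In the adults the opposite strand made up 0.149% of the counts at *Lhb* and 3.0% at *Foxl2*.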

How the results depend on the processing

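The log2 fold changes of all 6 genes kept their sign under each alternative that could test them, and none changed its call except *Cga*, not called when the fold change was tested against 4. They ran from −13.34 to −11.04 for *Lhb*, −12.21 to −9.19 for *Fshb*, −4.18 to −2.17 for *Cga*, −11.00 to −9.71 for *Gnrhr*, −4.73 to −4.19 for *Nr5a1* and −1.22 to −0.79 for *Foxl2*. The number of the 6 genes called was 5 in all but 2 of 23 alternatives, 4 when the fold change was tested against 4, and 2 with at least 10 counts required in every library, a filter that leaves *Lhb*, *Fshb* and *Gnrhr* untested. The number of all genes called was 5001, 2634 under that filter, 8960 at a fold change of 2, 9948 with no threshold on fold change and 1744 when tested against 4, and 3683 to 5290 with single libraries left out. With 1 adult left out, the remaining adult is assumed to vary like the embryos.

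Replicate numbers only number different animals, and same-numbered libraries did not deviate together (r = 0.036 and 0.031 across genes). The replicate block could be fitted only to embryos 1 and 2 with adults 1 and 2. With it 4151 genes were called, and the log2 fold changes were −11.04 for *Lhb*, −11.79 for *Fshb*, −2.55 for *Cga*, −10.55 for *Gnrhr*, −4.22 for *Nr5a1* and −1.12 for *Foxl2*, with no change of call among them. The same 4 libraries without the block gave 3975 genes called and −11.21, −12.21, −2.63, −10.75, −4.22 and −1.0 in that order (added after the data were seen).

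With the unstranded count the level of *Cga* per length was 958 TPM in the embryo and 8488 TPM in the adult, and adult *Nr5a1* was 35.3 TPM. With the longest transcript adult *Nr5a1* was 38.3 TPM and adult *Foxl2* 22.4 TPM. The ratio of *Cga* to *Lhb* in the adult had a median of 12.5, 16.8 with the longest transcript and 8.56 with the unstranded count. The difference between the adults kept its direction for *Lhb*, *Fshb*, *Cga* and *Gnrhr* under all 3 alternatives (added after the data were seen).

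Depth limits the embryonic *Lhb* and *Gnrhr*, which rest on 16 and 11 read pairs. With 2 adults, the spread within that group rests on 1 difference.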
